A study of Mus musculus with 9 samples.

Results

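The 10 genes described here encode transcription regulators that are typical of round spermatids (RS), the haploid germ cells that follow meiosis in the testis. They were taken by gene name from a table of 55414 genes and are Crem and its coactivator Fhl5, the germ cell forms of general transcription factors Tbpl1, Gtf2a1l and Taf7l, the RFX factors Rfx2 and Rfx3, the SOX factors Sox5 and Sox30, and the basic helix-loop-helix factor Tcfl5. All 10 were among the 25128 genes tested. The samples are RS of adult mice, labelled as wild type, in which Stra8-iCre, a Cre recombinase driven in the germ line from the spermatogonial stage on, had switched on a lox-stop-lox tdTomato reporter. RS were sorted by tdTomato fluorescence and forward scatter and kept for 24 h in MEM medium with lactate, pyruvate and dialyzed serum. In that time 3 samples received vehicle, which is 0.15% DMSO, 3 received 24 mM oxamate in 0.15% DMSO, and 3 received 24 mM oxamate with 0.3 mM octyl-L-2HG (octyl-L2HG in the labels), again in 0.15% DMSO. Oxamate inhibits lactate dehydrogenase, which can make L-2-hydroxyglutarate (L-2HG), and octyl-L-2HG is an ester of L-2HG that enters cells. No samples with octyl-L-2HG alone were compared, so every effect of octyl-L-2HG below was measured in cells that also had oxamate. Libraries 1 to 3 are vehicle, 4 to 6 oxamate and 7 to 9 both compounds. The question was how the RNA of these regulators changed when L-2HG synthesis was inhibited and when L-2HG was supplied again.

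In round spermatids a special set of factors turns on the genes that build the sperm head and tail. CREM binds cAMP response elements and is activated there by FHL5 (also called ACT), whose place in the cell is set by the kinesin KIF17. TBPL1 is a relative of the TATA-binding protein TBP and is needed for spermatids to mature, GTF2A1L replaces the large subunit of TFIIA in germ cells, and TAF7L replaces the TFIID subunit TAF7 and is encoded on the X chromosome. RFX2 and RFX3 bind X-box sequences of genes for cilia and flagella, SOX5 has a short form made in the testis, SOX30 is needed for the haploid gene programme, and TCFL5 is a testis factor of meiotic and haploid cells. Spermatids store many of their RNAs and translate them later, as the nucleus condenses and transcription stops.

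Promoter windows came from a RefSeq table on GRCm38.p6, and the chromosome of Crem was left out of the search. The other 9 of the 10 genes had a window, with 10 windows in all since Fhl5 has a pair. The 250 bases before the start were searched on both strands for TGACGTCA (the CREM site), TGACGT (its core), GTTGCC (the core of an X-box), AACAAT (the SOX core), CACGTG (an E-box) and TATAAA (the TATA box). Any match to TGACGTCA also counts as a match to TGACGT. Among the 32817 windows searched, 1.55% held TGACGTCA, 6.46% TGACGT, 10.43% GTTGCC, 9.42% AACAAT, 6.02% CACGTG and 12.37% TATAAA. The 4 windows below are shown because their genes were the ones whose RNA differed between vehicle and both compounds, first the pair that was higher and then the pair that was lower. Each is written 5′ to 3′ with its last base just before the start, and capitals mark matches to those motifs.
Rfx2 (chr17:56831009-56831258, minus strand): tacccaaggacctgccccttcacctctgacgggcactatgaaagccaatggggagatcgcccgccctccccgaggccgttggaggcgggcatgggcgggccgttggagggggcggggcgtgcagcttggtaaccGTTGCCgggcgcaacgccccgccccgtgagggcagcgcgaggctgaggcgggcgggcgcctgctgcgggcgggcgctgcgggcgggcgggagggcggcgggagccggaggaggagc
Tcfl5 (chr2:180642692-180642941, minus strand): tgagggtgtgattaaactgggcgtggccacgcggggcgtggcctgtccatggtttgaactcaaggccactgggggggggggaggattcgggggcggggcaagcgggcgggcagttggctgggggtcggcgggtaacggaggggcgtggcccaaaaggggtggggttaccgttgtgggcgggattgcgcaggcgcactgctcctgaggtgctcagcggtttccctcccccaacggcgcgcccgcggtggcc
Taf7l (chrX:134476491-134476740, minus strand): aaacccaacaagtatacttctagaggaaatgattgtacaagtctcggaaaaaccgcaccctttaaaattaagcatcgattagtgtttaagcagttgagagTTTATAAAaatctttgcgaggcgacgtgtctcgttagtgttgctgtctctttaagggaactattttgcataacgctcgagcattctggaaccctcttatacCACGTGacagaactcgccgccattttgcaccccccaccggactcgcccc
Fhl5 (chr4:25242853-25243102, minus strand): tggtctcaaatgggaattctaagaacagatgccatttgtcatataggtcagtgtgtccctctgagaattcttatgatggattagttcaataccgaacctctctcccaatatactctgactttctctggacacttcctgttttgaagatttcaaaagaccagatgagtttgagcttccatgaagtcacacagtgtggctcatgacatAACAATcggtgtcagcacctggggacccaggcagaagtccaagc
The Rfx2 window had GTTGCC at 116 to 111 bases before the start, so the gene for an X-box factor has the X-box core in its own window. In the Taf7l window TATAAA was read on both strands in overlapping matches between 150 and 143 bases before the start, and CACGTG lay at 49 to 44. The upstream Fhl5 window had AACAAT at 44 to 39 bases, and its other window had no match. Tcfl5 had none of the 6 motifs in its window. The windows of the higher pair were GC-rich, with 76.0% GC and 30 CpG dinucleotides for Rfx2 and 70.4% and 22 for Tcfl5, against a median of 52.4% and 6 over all windows. Those of the lower pair had 44.8% GC and 14 CpG for Taf7l, and 44.0% and 2 for the Fhl5 window shown. Rfx3, whose RNA was not called, had a window as rich as the higher pair, with 72.8% GC and 30 CpG. Among the other windows, Sox30 had 68.0% GC, Tbpl1 65.6% and Sox5 39.6%, Sox5 had GTTGCC on the opposite strand at 16 to 11 bases, and Gtf2a1l had GTTGCC at 188 to 183 bases. These matches are letters in a window, and no binding was measured.

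Each library held between 32339533 and 39888396 counted reads, and the 10 regulators took between 0.339% and 0.357% of them. The lowest count of any regulator in any library was 689, for Taf7l. Values below are the authors' normalized read counts, which are counts divided by a size factor for the library, and folds are log2 fold changes from edgeR. Oxamate library 4 stood apart from oxamate libraries 5 and 6, its chi-square divided by the degrees of freedom being 29.5 and 36.6 against them and 2.75 between the latter pair, and vehicle libraries were uneven too, at 19 and 18 for library 1 against 2 and 3 and 10.1 between 2 and 3. All 7 round spermatid markers were expressed, and their summed normalized count was 51794 to 52812 in vehicle, 48554 to 50622 in oxamate and 47646 to 48709 in libraries of both compounds, a list that shares Prm1 and Tnp1 with the CREM-dependent genes below. With both compounds against vehicle 4 of these 7 markers fell and 1, the acrosome gene Acrv1, rose (edgeR). The sum of 6 spermatocyte markers was 17493 to 20177 with vehicle, 17019 to 19890 with oxamate and 17802 to 18382 with both, and none of the 6 was called in any pairwise comparison (edgeR). Summed markers of spermatogonia did not exceed 140.3 in any library, those of Sertoli cells 51.3, those of Leydig cells 40.3, those of peritubular and endothelial cells 254.3 and those of macrophages and leukocytes 162.1. Of these markers 2 were called by edgeR: endothelial Kdr rose with oxamate (93.6 to 128.5 in the mean, adjusted p = 0.0457) and with both compounds against vehicle (129.1, adjusted p = 0.0232), and spermatogonial Sohlh1 fell with both (6.11 to 1.14, adjusted p = 0.0313). In bulk samples of this kind, fewer cells of a stage and less RNA per cell cannot be told apart, and whether the fall in the spermatid marker sum had a part in the results below was not tested. The labels do not say whether the 3 samples of a group came from separate animals or cultures, so p-values measure the spread between these samples, which may be technical.

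Per kilobase of exon, the regulators spanned a wide range in vehicle. Gtf2a1l was highest, at 11680 ± 327.0 normalized counts per kb (SD, n = 3), followed by Tbpl1 at 7221 ± 283.9. Tcfl5 at 4985 ± 116.9 and Fhl5 at 4831 ± 139.7 came next, and their ranges over the 3 libraries overlapped. Rfx2 at 2959 ± 144.0 and Sox30 at 2756 ± 92.5 also overlapped, and Crem followed at 2264 ± 109.3. Sox5 had 708.4 ± 30.6, Taf7l 509.0 ± 25.2, and Rfx3 was lowest at 207.5 ± 6.54 counts per kb. No other neighbours in this order overlapped. The germ cell forms stood far above their general relatives per kb in vehicle, with Gtf2a1 at 134.7, Tbp at 632.5 and Taf7 at 78.9. Part of each gap comes from exon length, which was 13576 bases for Tbp against 3271 for Tbpl1. It was 6241 for Gtf2a1 against 1888 for Gtf2a1l, and 3302 for Taf7 against 2245 for Taf7l. In reads with vehicle the ratio was 2.75 for Tbpl1 to Tbp, 26.2 for Gtf2a1l to Gtf2a1 and 4.41 for Taf7l to Taf7. Rfx1, a relative of Rfx2 that is widely expressed, had 1225 per kb, and Fhl4, another FHL gene of the testis, had 41325, above all 10 regulators. With both compounds the order changed at one place, since Rfx2 at 3578 ± 164.0 lay level with Fhl5 at 3468 ± 206.2. Exon length is the union over all annotated transcripts, which lowers the level of a gene whose testis form is short.

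**Figure D1:**
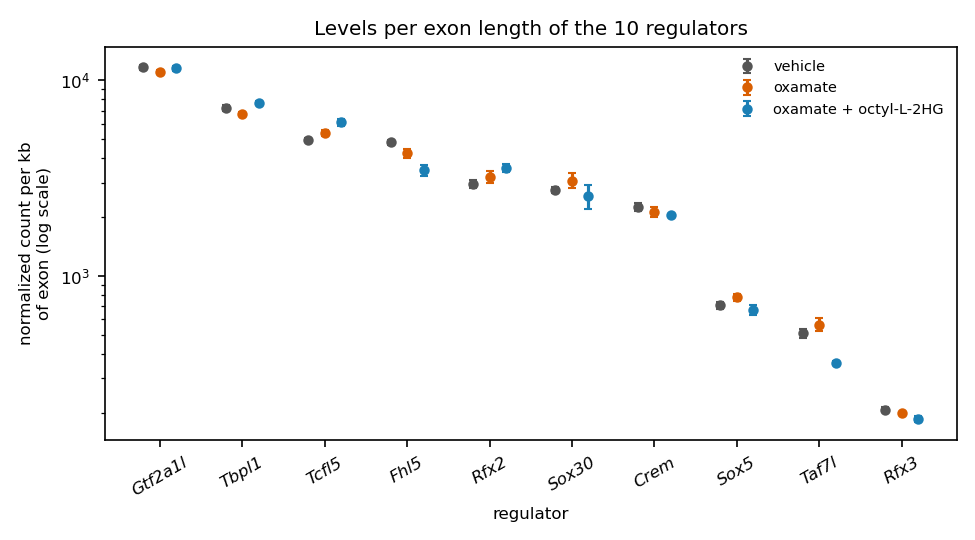
Normalized counts per kb of exon (log axis) for the 10 regulators in vehicle, oxamate and oxamate + octyl-L-2HG, as means with SD over 3 libraries. Regulators are ordered by their vehicle level, from Gtf2a1l at 11680 to Rfx3 at 207.5, and Fhl5 and Taf7l drop with both compounds.

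Across the 3 groups, 6 of the 10 regulators passed an adjusted p of 0.05 in the quasi-likelihood test of edgeR, with p-values adjusted over all genes by Benjamini and Hochberg's method. They were Fhl5, Taf7l, Rfx2, Sox5, Sox30 and Tcfl5. Of all genes tested 19.8% did so, and 33.5% of the 10715 genes whose normalized count averaged at least 100, as that of all 10 regulators does. Oxamate alone changed none of them at an adjusted p under 0.05, against a background of 3.97% of genes higher and 1.22% lower. At an unadjusted p under 0.05 there were 2, Fhl5 lower and Sox5 higher, and DESeq2 called 0. When octyl-L-2HG was added to oxamate, 4 regulators fell, namely Fhl5, Taf7l, Sox5 and Sox30, and 0 rose, against 8.06% of all genes lower and 3.18% higher. Between both compounds and vehicle, Rfx2 and Tcfl5 were higher and Fhl5 and Taf7l lower, against 7.48% of genes higher and 10.6% lower. Among genes that average at least 100 the shares were 8.08% higher and 1.59% lower with oxamate, 7.06% and 12.7% when octyl-L-2HG was added, and 16% and 13.6% with both against vehicle, so 2 of 10 each way in the last comparison is near that share. The median log2 fold change of the 10 was 0.03 with oxamate, -0.10 when octyl-L-2HG was added and -0.11 with both compounds against vehicle, beside -0.01, -0.04 and -0.05 over all genes tested and 0.00975, 0.00995 and 0.03 over those that average at least 100. The comparisons share samples, so their calls are not independent of one another.

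**Figure D2:**
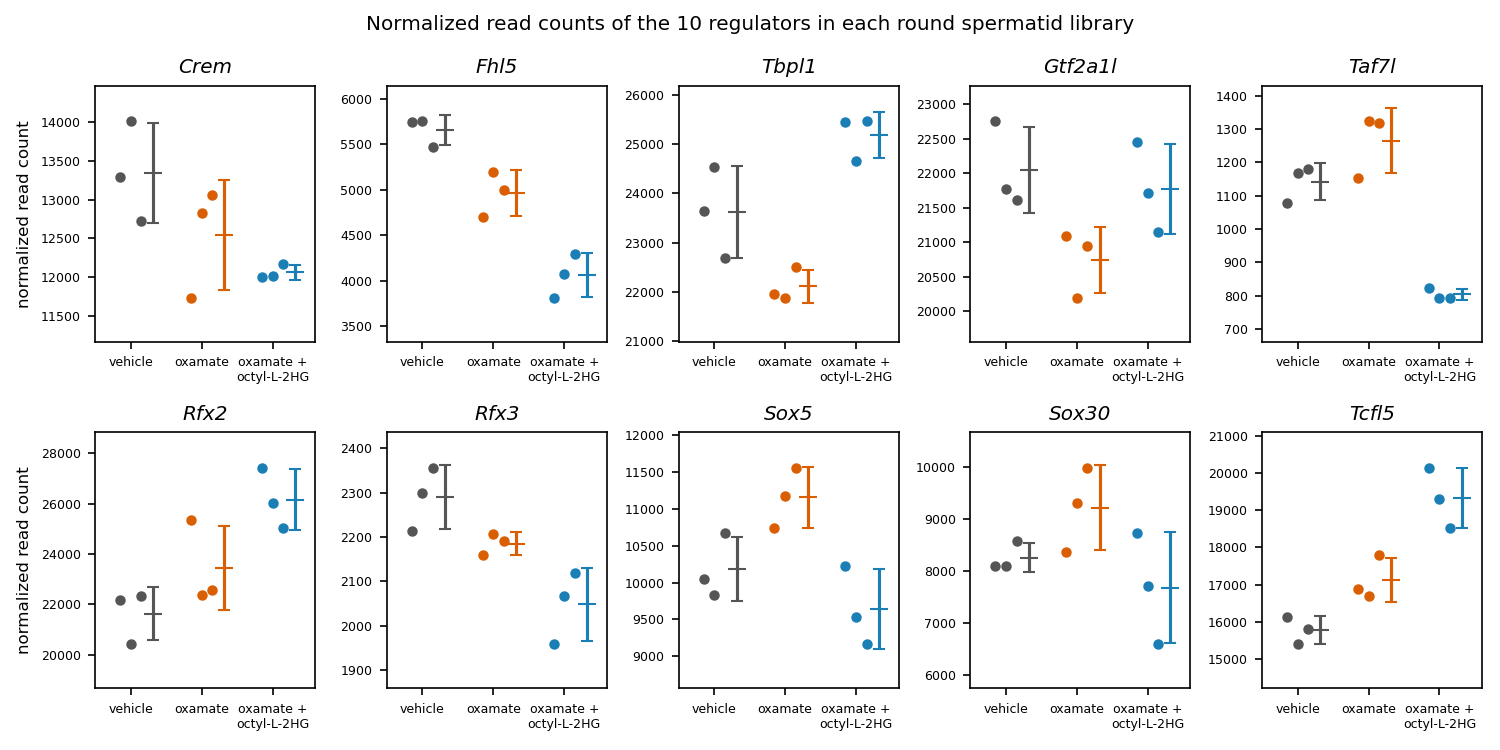
Normalized read counts of the 10 regulators in each library (points) by group, with the group mean and SD beside them, each panel on its own axis that does not start at 0. Taf7l and Fhl5 lie lowest in all 3 libraries with both compounds, and Tcfl5 and Rfx2 have their highest means there.

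Fhl5, the CREM coactivator, fell with octyl-L-2HG and Crem itself showed smaller differences in the same direction. The Fhl5 libraries read 5749, 5754 and 5468 normalized counts with vehicle, 4696, 5195 and 4997 with oxamate, and 3813, 4075 and 4295 with both compounds. None of the 3 groups overlapped, and the order was vehicle, oxamate, both compounds. When octyl-L-2HG was added to oxamate, Fhl5 had a log2 fold change of -0.31 ± 0.07 (SE; edgeR adjusted p = 0.00413), and against vehicle -0.50 ± 0.07 (edgeR adjusted p = 2e-05), a level that fell by 29.3%. Oxamate alone gave -0.19 ± 0.07, with a 95% interval of -0.33 to -0.04 and an edgeR adjusted p of 0.133. The Crem libraries read 13297, 14010 and 12724 with vehicle, 11737, 12830 and 13063 with oxamate, and 12001, 12019 and 12175 with both compounds. Both compounds lay below vehicle in every library, while oxamate overlapped each of the other groups. Crem missed the threshold against vehicle, with a log2 fold change of -0.17 (95% interval -0.30 to -0.04, edgeR adjusted p = 0.0735). It passed with total counts as the scaling (-0.23, adjusted p = 0.0152) and without oxamate library 4 (-0.17, adjusted p = 0.0139), both by edgeR. Crem has 39 annotated transcripts that encode both activators and repressors, and the gene count adds them up. It shares 8.01% of its exon length with Gm6225 on the opposite strand.

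The ratio of Fhl5 to Crem reads within a library does not depend on how libraries are scaled. It was 0.424 ± 0.0119 with vehicle (SD, n = 3), 0.396 ± 0.0118 with oxamate and 0.337 ± 0.0177 with both compounds. The 3 groups did not overlap, and each of the 3 comparisons had a two-sided exact permutation p of 0.1 (adjusted 0.15 over 15 comparisons of 5 ratios chosen after the values were seen), which is the smallest that 3 against 3 allows. Kif17, the kinesin that moves FHL5, went another way: its mean normalized count was 19083 in vehicle, 24216 in oxamate and 20886 with both compounds. Kif17 rose with oxamate by 0.35 ± 0.07 on the log2 scale (edgeR adjusted p = 0.0025) and fell when octyl-L-2HG was added, with a log2 fold change of -0.24 ± 0.07 (edgeR adjusted p = 0.0223). The fall held in 5 of the 9 fits that leave out a library and in 10 of all 15 alternatives. It was lost without libraries 5, 7, 8 or 9, with an edgeR adjusted p of up to 0.104 without library 9. The call was also lost without a filter on low counts (-0.195, edgeR adjusted p = 0.0554). Of the relatives of Crem, Atf1 stood at 0.09 against vehicle on the log2 scale (95% interval -0.04 to 0.22), while Creb1, at a low mean of 338.6 with vehicle and 447.4 with both, rose by 0.38 ± 0.09 (edgeR adjusted p = 0.00657).

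Of 8 genes known to need CREM, most fell when octyl-L-2HG was added and fewer with oxamate alone. With oxamate 4 fell and 0 rose, and 7 fell and 0 rose both when octyl-L-2HG was added and with both compounds against vehicle. All 8 average at least 100, and of such genes 1.59% fell with oxamate, 12.7% when octyl-L-2HG was added and 13.6% with both compounds against vehicle. The median log2 fold change of the 8 was -0.13, -0.30 and -0.46 in these comparisons, beside 0.00975, 0.00995 and 0.03 over genes that average at least 100. The 8 genes were listed with earlier results of these data known, so these counts and medians are not an independent test. The protamine genes Prm1 and Prm2, which package sperm DNA, fell with both compounds against vehicle by 0.77 ± 0.07 and 0.68 ± 0.06 on the log2 scale, and the transition protein genes Tnp1 and Tnp2 by 0.56 ± 0.07 and 0.75 ± 0.07 (edgeR adjusted p between 1.11e-07 and 4.55e-06). These 4 genes were also the ones that fell with oxamate alone, where the call of Tnp1 was lost in 3 of 15 alternatives. Ace, an enzyme gene with a testis form, fell when octyl-L-2HG was added, with a log2 fold change of -0.30 ± 0.06 (edgeR adjusted p = 0.00223), after 0.01 with oxamate alone. Camk4, a kinase gene, behaved the same, with -0.36 ± 0.07 (edgeR adjusted p = 0.00295) after 0.01. Odf1, a gene of the sperm tail fibres, had -0.22 ± 0.06 (edgeR adjusted p = 0.0203), a call lost in 5 of 15 alternatives, and its fall against vehicle (-0.19, edgeR adjusted p = 0.0258) was lost in 7 of 15. Smcp, a gene of the sperm mitochondrial sheath, was called in no comparison, with -0.08 ± 0.08 when octyl-L-2HG was added.

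**Figure D3:**
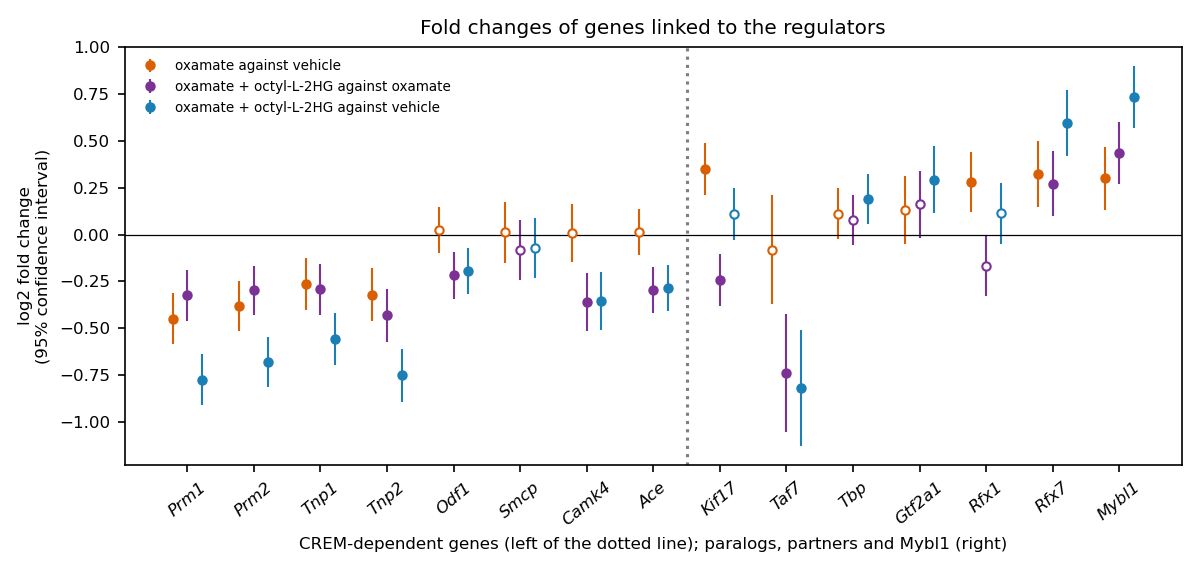
Log2 fold changes with 95% confidence intervals in 3 comparisons for 8 CREM-dependent genes (left of the dotted line) and for paralogs and partners of the regulators with Mybl1 (right), where filled points passed an adjusted p of 0.05 in edgeR. All CREM-dependent genes but Smcp fell when octyl-L-2HG was added, and Mybl1 and Rfx7 rose in each comparison.

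Of the germ cell forms of general factors, Taf7l changed most and the other pair did not pass the test. The Taf7l libraries read 1078, 1169 and 1181 normalized counts with vehicle, 1153, 1323 and 1319 with oxamate, and 823.2, 794.2 and 793.8 with both compounds. Every library with both compounds lay below the other 6, while vehicle and oxamate overlapped through oxamate library 4. Taf7l fell by 37.6% when octyl-L-2HG was added, a log2 fold change of -0.68 ± 0.08 (edgeR adjusted p = 6.91e-06), the largest change of the 10 regulators in the 3 comparisons. Against vehicle it was -0.53 ± 0.08 (edgeR adjusted p = 4.04e-05). Oxamate alone gave 0.15 ± 0.07, with a 95% interval of -0.005 to 0.31 and an edgeR adjusted p of 0.309, and without oxamate library 4 it gave 0.21 with an adjusted p of 0.0479, the only call of a regulator with oxamate alone in any alternative. Taf7, the form of other cells, was much lower and fell too, from a mean of 246.8 with oxamate to 149.9 with both compounds, that is -0.74 ± 0.15 on the log2 scale (edgeR adjusted p = 0.00273). The ratio of Taf7l to Taf7 reads was therefore close between oxamate at 5.31 ± 1.06 and both compounds at 5.41 ± 0.521 (SD, n = 3), which overlapped (exact permutation p = 0.9, two-sided), and it was 4.41 ± 0.274 with vehicle, which lay below both compounds without overlap (exact permutation p = 0.1, two-sided).

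Tbpl1, the TBP-like factor, read 23637, 24542 and 22685 normalized counts with vehicle, 21952, 21886 and 22508 with oxamate, and 25440, 24656 and 25463 with both compounds. Oxamate was lowest and both compounds highest, and no 2 groups overlapped. The log2 fold change when octyl-L-2HG was added was 0.16 ± 0.06 (95% interval 0.04 to 0.29, edgeR adjusted p = 0.0855), and it passed in 6 of 15 alternatives, among them DESeq2 (adjusted p = 0.0131). Tbpl1 shares 12.44% of its exon length with Slc2a12 on the opposite strand, and the sources do not state whether counting used the strand. Tbp had 8587 with vehicle and 9953 with both compounds, higher by 0.19 ± 0.07 on the log2 scale (edgeR adjusted p = 0.0454), a call lost in 7 of 15 alternatives (0.13 with total counts, and an edgeR adjusted p of up to 0.211, without library 7). The Tbpl1 to Tbp ratio was 2.75 ± 0.0486 in vehicle, 2.39 ± 0.103 in oxamate and 2.54 ± 0.165 with both compounds (SD, n = 3), and oxamate lay below vehicle without overlap (exact permutation p = 0.1, two-sided).

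Gtf2a1l, the TFIIA subunit of germ cells, did not pass the test in any comparison. Its libraries read 22751, 21774 and 21608 normalized counts with vehicle, 21089, 20193 and 20940 with oxamate, and 22448, 21707 and 21144 with both compounds. Oxamate lay below the other groups in all libraries, and those groups overlapped. The 95% interval of the log2 fold change was -0.21 to 0.04 with oxamate, -0.08 to 0.17 when octyl-L-2HG was added, and -0.16 to 0.08 with both against vehicle. When octyl-L-2HG was added, the sign turned with total counts as the scaling, and against vehicle it turned without a filter on low counts. Gtf2a1, its relative in other cells, went from 840.5 to 1047 with both compounds (log2 fold change 0.29 ± 0.09, edgeR adjusted p = 0.0205), a call lost in 5 of 15 alternatives (edgeR adjusted p up to 0.152, without library 7). The Gtf2a1l to Gtf2a1 ratio ran from 25.45 to 27.42 with vehicle, from 20.47 to 24.41 with oxamate and from 19.41 to 22.98 with both compounds, and both treated groups lay below vehicle without overlap (exact permutation p = 0.1 each, two-sided).

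Rfx2 was higher with both compounds than with vehicle, while Rfx3 did not pass the test in any comparison. The Rfx2 libraries read 22156, 20420 and 22320 normalized counts with vehicle, 25348, 22371 and 22574 with oxamate, and 27420, 26019 and 25034 with both compounds. Both compounds lay above vehicle in all libraries, and oxamate library 4 reached into the range of both compounds. Rfx2 was higher by 19.1% with both compounds than with vehicle, and its log2 fold change was 0.25 ± 0.07 (edgeR adjusted p = 0.00959), and the call was lost without vehicle library 2 (0.22, adjusted p = 0.0562) or without library 7 (0.22, adjusted p = 0.0638), both by edgeR. Rfx3, which acts with RFX2 on cilium genes, read 2213, 2300 and 2356 with vehicle, 2159, 2208 and 2190 with oxamate, and 1959, 2068 and 2118 with both compounds. All 3 Rfx3 groups kept apart, in falling order. Rfx3 with both compounds differed from vehicle by a log2 fold change of -0.18 ± 0.07 (95% interval -0.32 to -0.04) and missed the threshold, with an edgeR adjusted p of 0.0619. With total counts as the scaling it passed (-0.25, edgeR adjusted p = 0.0124), as it did without oxamate library 4 (-0.18, edgeR adjusted p = 0.0162). The ratio of Rfx2 to Rfx3 reads was 9.45 ± 0.567 in vehicle, 10.7 ± 0.884 in oxamate and 12.8 ± 1.11 with both compounds (SD, n = 3). No 2 groups overlapped in this ratio, and each comparison had the smallest exact permutation p, 0.1 (two-sided).

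Among the other RFX genes, Rfx1 and Rfx7 rose with oxamate. Rfx1 rose with oxamate by 0.28 ± 0.08 on the log2 scale (edgeR adjusted p = 0.0361), a call that held in 7 of 15 alternatives and was 0.19 without oxamate library 4 (edgeR adjusted p = 0.0501). Rfx7, at a mean of 372.8 with vehicle and 571.7 with both compounds, rose by 0.60 ± 0.08 (edgeR adjusted p = 3.22e-05), a call that held in all 15 alternatives. Its steps were 0.32 ± 0.09 with oxamate (edgeR adjusted p = 0.0275), lost in 6 of 15 alternatives, and 0.27 ± 0.08 when octyl-L-2HG was added (edgeR adjusted p = 0.0378), lost in 7 of 15, each with an adjusted p of up to 0.12. Of 9 cilium genes, 1 rose with oxamate, 1 rose and 1 fell when octyl-L-2HG was added, and 1 rose with both compounds against vehicle. All 9 average at least 100, and of such genes 8.08% rose with oxamate, 7.06% rose and 12.7% fell when octyl-L-2HG was added, and 16% rose with both compounds against vehicle. Foxj1, a regulator of motile cilia, rose with oxamate by 0.46 ± 0.08 (edgeR adjusted p = 0.000641) and fell when octyl-L-2HG was added, with -0.32 ± 0.08 (edgeR adjusted p = 0.00803), a call lost without library 9 (-0.27, edgeR adjusted p = 0.0679). Ift74, a gene of transport in the flagellum, rose by 0.30 ± 0.09 when octyl-L-2HG was added (edgeR adjusted p = 0.0355). That call was lost with total counts and without libraries 4, 7, 8 or 9, the log2 fold change being 0.19 without library 4 (edgeR adjusted p = 0.0583). Ift88 of the same machinery rose by 0.21 ± 0.07 with both compounds against vehicle (edgeR adjusted p = 0.0403). The Ift88 call held in 7 of 15 alternatives.

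The SOX pair had its highest mean with oxamate alone and fell when octyl-L-2HG was added. Sox5 read 10044, 9831 and 10677 normalized counts with vehicle, 10739, 11174 and 11560 with oxamate, and 10226, 9537 and 9163 with both compounds. Oxamate lay above both other groups in all libraries, and those groups overlapped. Sox5 fell by 15.1% when octyl-L-2HG was added, a log2 fold change of -0.24 ± 0.06 (edgeR adjusted p = 0.0166). Sox30 read 8102, 8100 and 8581 with vehicle, 8369, 9305 and 9991 with oxamate, and 8729, 7714 and 6597 with both compounds. The libraries with both compounds were the most spread of any group of any regulator, with a coefficient of variation of 13.9%, and each pair of groups overlapped. Sox30 fell by 18.2% when octyl-L-2HG was added, a log2 fold change of -0.29 ± 0.08 (edgeR adjusted p = 0.0239). These falls held in 5 and 4 of the 9 fits that leave out a library, and in 10 and 9 of all 15 alternatives. Sox5 also lost its call without a filter on low counts (-0.19, edgeR adjusted p = 0.0706), and Sox30 with only the compared groups fitted (-0.27, edgeR adjusted p = 0.0636). Sox5 lost its call without libraries 5, 6, 8 or 9 (log2 fold change -0.24, -0.22, -0.23 and -0.21, edgeR adjusted p between 0.0615 and 0.0971). Sox30 lost it without those or vehicle library 3, with an edgeR adjusted p of up to 0.175 and a log2 fold change of -0.20 without library 9. With oxamate alone the log2 fold change was 0.14 for Sox5 (95% interval 0.01 to 0.27, edgeR adjusted p = 0.262) and 0.16 for Sox30 (-0.01 to 0.33, edgeR adjusted p = 0.315). Sox5 shares 9.25% of its exon length with Sox5os1 on the opposite strand. Sox6, the close relative of Sox5, had -0.07 when octyl-L-2HG was added (95% interval -0.22 to 0.08), and Sox13, another relative, was hardly expressed, at a mean of 53.5 with vehicle and 16.4 with both compounds (log2 fold change -1.72 ± 0.28, edgeR adjusted p = 0.000145).

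Tcfl5 was higher with both compounds than with vehicle, and its mean with oxamate lay between them. Its libraries read 16132, 15394 and 15817 normalized counts with vehicle, 16867, 16682 and 17797 with oxamate, and 20144, 19300 and 18524 with both compounds. None of the 3 groups overlapped, in rising order. Tcfl5 rose by 20.6% from vehicle to both compounds, or 0.27 ± 0.06 on the log2 scale (edgeR adjusted p = 0.00254), and the call held in all 15 alternatives. The steps were 0.12 ± 0.06 with oxamate (edgeR adjusted p = 0.302) and 0.15 ± 0.06 when octyl-L-2HG was added (edgeR adjusted p = 0.118), and DESeq2 passed the second (adjusted p = 0.0332). Of its exon length 7.39% is shared with Col9a3 on the opposite strand. Mybl1, a master regulator of the meiotic programme, moved the same way from a lower level, with a mean normalized count of 774.3, then 951.0, then 1307. Its log2 fold change was 0.30 ± 0.08 with oxamate (edgeR adjusted p = 0.0299), 0.43 ± 0.08 when octyl-L-2HG was added (edgeR adjusted p = 0.00103) and 0.73 ± 0.08 with both against vehicle (edgeR adjusted p = 1.5e-06). It was the only gene called in any of these comparisons among 10 other germ cell regulators, and its call with oxamate held in 6 of 15 alternatives. Of those 10 genes 9 average at least 100. Among all such genes 8.08% rose and 1.59% fell with oxamate, and 7.06% rose and 12.7% fell when octyl-L-2HG was added. With both compounds against vehicle 16% rose and 13.6% fell.

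**Figure D4:**
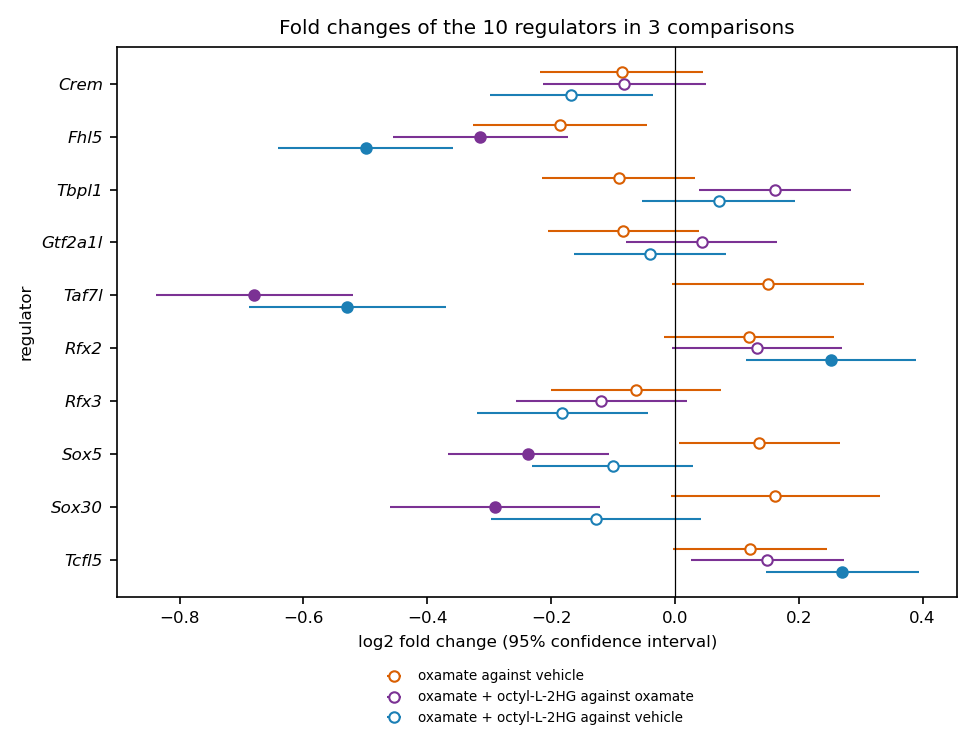
Log2 fold changes of the 10 regulators with 95% confidence intervals (lines), coloured by comparison, where filled points passed an adjusted p of 0.05 in edgeR's quasi-likelihood test and open points did not. Oxamate alone has open points for all 10, and the lowest point is Taf7l at -0.68 when octyl-L-2HG was added.

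Among 22 tested paralogs and partners of the regulators, 3 rose and 0 fell with oxamate, 1 rose and 4 fell when octyl-L-2HG was added, and 4 rose and 2 fell with both compounds against vehicle. Of all genes tested, 3.97% rose and 1.22% fell, 3.18% rose and 8.06% fell, and 7.48% rose and 10.6% fell in the same comparisons. Of the 22 genes 15 average at least 100, and among such genes 8.08% rose and 1.59% fell, 7.06% rose and 12.7% fell, and 16% rose and 13.6% fell. The libraries of 2 groups did not overlap for 7 of the 10 regulators in each of the 3 comparisons, 3 above and 4 below. Of the 10715 genes that averaged at least 100, 16.5% lay above and 10.7% below with oxamate, 24.4% and 18.3% when octyl-L-2HG was added, and 33.6% and 19.4% with both against vehicle. Likeness to other genes was measured by Pearson's r of log2(normalized count + 1) over the 9 libraries, which fall into 3 groups. The 3 genes most like Fhl5 were Dlx6os1 (r = 0.993), Cst8 (0.993) and Fh1 (0.991), and those most like Taf7l were Camkk2 (0.998), Mtbp (0.996) and Chrna5 (0.992). Rfx2 was most like Rnf40 (0.992), Ep400 (0.992) and Agbl5 (0.990), and Tcfl5 most like Ss18 (0.986), Pdia3 (0.984) and Lsm12 (0.984). Sox5 was most like Osbp (0.984), Mical2 (0.984) and Golga2 (0.972). Sox30 was most like Gm4251 (0.963), Osbp (0.962) and Cabyr (0.952), so Osbp was near both SOX genes.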

How the data were processed

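RNA of sorted round spermatids was sequenced from polyA-selected, stranded libraries. According to the submitters' processing notes the authors used cutadapt 2.10, TopHat2 2.1.1, HTSeq 2.01 and DESeq2 1.36.0 with genome build GRCm39. The authors deposited raw read counts per gene. A normalized signal was deposited beside them, each count being divided by the DESeq2 size factor of its library. No column of values lacked a sample. The 25128 genes with at least 10 counts over the 9 libraries were fitted with edgeR 4.0.16 in R 4.3.3 (TMM, all libraries, group as the only term, robust quasi-likelihood test), and p-values were adjusted by Benjamini-Hochberg at 0.05. The standard error is the log2 fold change divided by the root of F, and intervals are 95%. Tested on simulated data for 24633 genes in a comparison of oxamate with vehicle, the fit called 100 of 100 genes raised 2-fold and 62 of 100 raised 1.3-fold, with 9 unchanged genes called.

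The members and gene lists were chosen with earlier results of these data known. Named beside the 10 members were their paralogs and partners, list genes with a mean of at least 100 and the largest called changes, and for each member that differed the genes with the highest r. Fhl4, Smcp and the ratios were picked after values were seen. Alternatives were DESeq2 1.42.0, other scalings and filters, a stricter threshold, fits of 2 groups alone, and fits without each library in turn. Exon lengths and overlaps came from a GRCm38 annotation matched by gene identifier. Promoters came from RefSeq on GRCm38.p6, with the chromosome of Crem left out. The labels and the methods name different sequencers, and the strand setting of counting is not given in the sources used here. The other cell types of the study were not analysed here.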

Additional observations from a re-analysis of the deposited data

How the results depend on the processing

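The calls of Fhl5 and Taf7l with octyl-L-2HG added and with both compounds against vehicle, and of Tcfl5 against vehicle, held in all 15 alternatives. With an adjusted p under 0.01, 2 regulators were called when octyl-L-2HG was added and 3 in the test of any difference. Leaving out 1 library at a time gave 0 to 1 called regulators with oxamate against vehicle (1 without oxamate library 4), 2 to 6 when octyl-L-2HG was added (2 without libraries 5, 6, 8 or 9), 3 to 6 with both against vehicle, and 3 to 8 in the test of any difference (3 without library 8). Over all genes, the 1303 calls with oxamate against vehicle ranged from 659 (without library 2) to 2288 (without 4) when a library was left out, the 2823 when octyl-L-2HG was added from 1396 (without 7, with 1429 without 5, 1465 without 8 and 1742 without 9) to 4415 (without 4), and the 4534 with both against vehicle from 2970 (without 7) to 6194 (without 4), so the background shares move with the libraries too. Gtf2a1l turned sign to -0.0011 with total counts when octyl-L-2HG was added, and to 0.00517 without a filter on low counts against vehicle. Of all single values of the 10 regulators under the alternatives, 422 kept their direction and side of the threshold, 13 gained and 13 lost a call, and 2 turned. The CREM-dependent genes called ranged from 3 to 4 with oxamate, and from 6 to 7 in each other comparison, in alternatives that were chosen after seeing the data. Among the other lists, leaving out 1 library gave 1 to 4 called paralogs and partners with oxamate (1 without libraries 2, 5 or 8) and 1 to 5 when octyl-L-2HG was added (1 without libraries 5, 7, 8 or 9, 3 without 6). The call of Mybl1 with oxamate was lost without any of libraries 1, 3, 5, 6, 7, 8 and 9. Called cilium genes ranged from 0 to 2 when octyl-L-2HG was added (0 without library 9, 1 without 7 or 8) and from 0 to 4 with both against vehicle (4 without library 4, 0 without 1, 5, 7, 8 or 9). No paired analysis was possible because the libraries are numbered 1 to 9 and the groups share no number.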
